A study of Mus musculus with 6 samples.

Results

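The lipid droplet coat genes of the CIDE, perilipin and FIT families were followed in liver RNA of male, HFD-fed (high-fat diet) mice, wild-type C57BL/6 per the study's methods. The mice had undergone either vertical sleeve gastrectomy (VSG), in which the greater part of the stomach is cut away, or a sham operation. The 10 genes (Cidea, Cideb, Cidec, Plin1, Plin2, Plin3, Plin4, Plin5, Fitm1 and Fitm2) were chosen by family membership with earlier results of the same contrast known, and all 10 were found among the 55385 genes of the count table. Their changes are therefore given as a description. The labels give the mice an age of 6 to 8 weeks, which cannot be that at sampling, as HFD was fed for 10 weeks before the operation. Both the sham and the VSG group stayed on HFD for 12 weeks after it, so no lean or chow-fed liver was compared. Per the study's methods, poly(A) RNA of 3 sham and 3 VSG livers was sequenced with strand-specific libraries, 1 library per mouse. The libraries are named sham replicates 1 to 3 and VSG replicates 4 to 6.

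A lipid droplet is a core of triglyceride and sterol ester under a single layer of phospholipid, and its coat proteins set how it forms, grows and gives up fat. FIT proteins sit in the endoplasmic reticulum and are needed for droplets to bud from it. CIDE proteins gather at contacts between droplets and move lipid from the smaller into the larger one, and perilipins cover the surface and control the access of lipases. In hepatocytes Plin2 is the best known droplet coat, Cideb takes part in the lipidation of very-low-density lipoprotein, and Cidea and Cidec are known from fat tissue and from fatty liver.

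The start regions of 3 of the genes are shown because PPAR nuclear receptors, which bind pairs of AGGTCA, are known regulators of this gene group. Windows from 250 bases before to 50 bases after each RefSeq start site (GRCm38.p6, all 4 on the minus strand and written in the direction of the gene) were searched on both strands. Capitals mark AGGTCA or its reverse complement and the E-box CACGTG. Cidec has a pair of starts, at chr6:113435711-113436010 and chr6:113434715-113435014. Plin2 lies at chr4:86670010-86670309, and the upstream start of Plin5 at chr17:56117499-56117798.
Cidec, upstream start: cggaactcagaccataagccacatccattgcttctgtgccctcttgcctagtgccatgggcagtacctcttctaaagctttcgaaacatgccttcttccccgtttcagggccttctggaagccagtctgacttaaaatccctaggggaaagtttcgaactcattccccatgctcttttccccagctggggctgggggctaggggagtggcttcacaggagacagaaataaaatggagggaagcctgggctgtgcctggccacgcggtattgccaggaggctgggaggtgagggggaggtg
Cidec, downstream start: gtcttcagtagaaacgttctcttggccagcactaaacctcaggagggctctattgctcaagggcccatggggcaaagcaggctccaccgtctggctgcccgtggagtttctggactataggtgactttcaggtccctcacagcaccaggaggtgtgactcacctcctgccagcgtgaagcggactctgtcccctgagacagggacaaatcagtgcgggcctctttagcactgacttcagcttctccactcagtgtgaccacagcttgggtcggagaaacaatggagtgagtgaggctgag
Plin2: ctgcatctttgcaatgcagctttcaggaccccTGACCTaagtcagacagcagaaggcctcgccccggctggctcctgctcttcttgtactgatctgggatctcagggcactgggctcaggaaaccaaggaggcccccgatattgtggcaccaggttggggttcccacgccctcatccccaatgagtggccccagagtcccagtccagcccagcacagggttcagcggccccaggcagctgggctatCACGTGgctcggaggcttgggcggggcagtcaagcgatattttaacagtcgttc
Plin5, upstream start: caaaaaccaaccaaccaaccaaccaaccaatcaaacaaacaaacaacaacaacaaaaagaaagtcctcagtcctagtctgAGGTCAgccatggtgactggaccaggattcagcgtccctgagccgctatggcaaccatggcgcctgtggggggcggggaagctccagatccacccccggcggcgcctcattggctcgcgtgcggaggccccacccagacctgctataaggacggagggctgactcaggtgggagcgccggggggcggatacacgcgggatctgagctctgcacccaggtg
Of the 10 genes, 9 were matched to 11 such windows, and Cidea was not included in this search. A single AGGTCA was found in 3 of the 11 windows, 1 of Plin2 and both of Plin5, and in 16.3% of all 32851 windows. In Plin2 it lay on the minus strand of the gene between positions -218 and -213, counted from the start site, and in Plin5 between -170 and -165 of the upstream window and between 14 and 19 of a second, downstream window. A pair of AGGTCA in the same direction with 1 base between them was found in 0 of the 11 windows and in 0.0396% of all windows, and with any base at the fourth position of each AGGTCA in 0 and 0.381%. The E-box of Plin2 spans its start site, and this motif was present in 1 of the 11 windows and 7.15% of all windows. CCAAT was found in 4 of the 11 windows (of Plin2, Plin3, Plin4 and Plin5) and 37.4% of all windows, and GGGCGG in 6 (of Cideb, Fitm2, Plin2, Plin3 and both of Plin5) and 35.7%. Both Plin5 windows overlap and share 1 of their GGGCGG matches. TGACG was found in 1 of the 11 (Fitm1) and 20.8% of all windows, and TATAAA in 1 (Cideb) and 13.6%. Neither Cidec window held any of these letters. A match of letters is not a bound site, and its absence covers these 300 bases only.

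The livers carried less RNA of the coat genes after VSG than after the sham operation. Of the 10 genes, 9 had enough counts to be tested and Plin1 did not. At an adjusted p under 0.05 (edgeR, over all 14454 genes tested), 8 of the 9 were lower and 0 were higher after VSG, where 7.87% of all genes tested were lower and 6.79% higher. By DESeq2, 9 were lower and 0 higher, where 12.3% of all genes were lower and 10.5% higher. All 9 log2 fold changes were negative, and in all 9 the 3 VSG libraries lay below the 3 sham libraries, which held for 19.8% of all genes tested. Since the genes were chosen on this contrast, nothing is read from these shares. The median log2 fold change (VSG minus sham) of the 9 was -1.47, and that of all genes tested was 0.03. In whole liver, fewer cells of a type and less RNA per cell cannot be told apart. The number called was 6, 5 and 2 on leaving out sham replicates 1, 2 and 3, where 5.11%, 3.31% and 0.748% of all genes were called lower. It was 5, 9 and 2 on leaving out VSG replicates 4, 5 and 6, where 3.95%, 9.59% and 0.812% were. The calls of the whole table thus moved with those of the coat genes, and all 9 log2 fold changes stayed negative. With 1 library left out they ran from -6.97 to -6.14 for Cidec, -3.60 to -2.75 for Plin4, -3.25 to -2.71 for Fitm1, -1.60 to -1.41 for Plin2 and -1.57 to -1.12 for Fitm2. They ran from -1.37 to -0.79 for Plin5, -0.71 to -0.51 for Cideb and -0.56 to -0.45 for Plin3. That of Cidea, which depends on the prior count, ran from -10.80 without VSG replicate 4, where no VSG count is left, to -6.98. Cidec and Plin2 were called under all 13 alternatives.

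**Figure D1:**
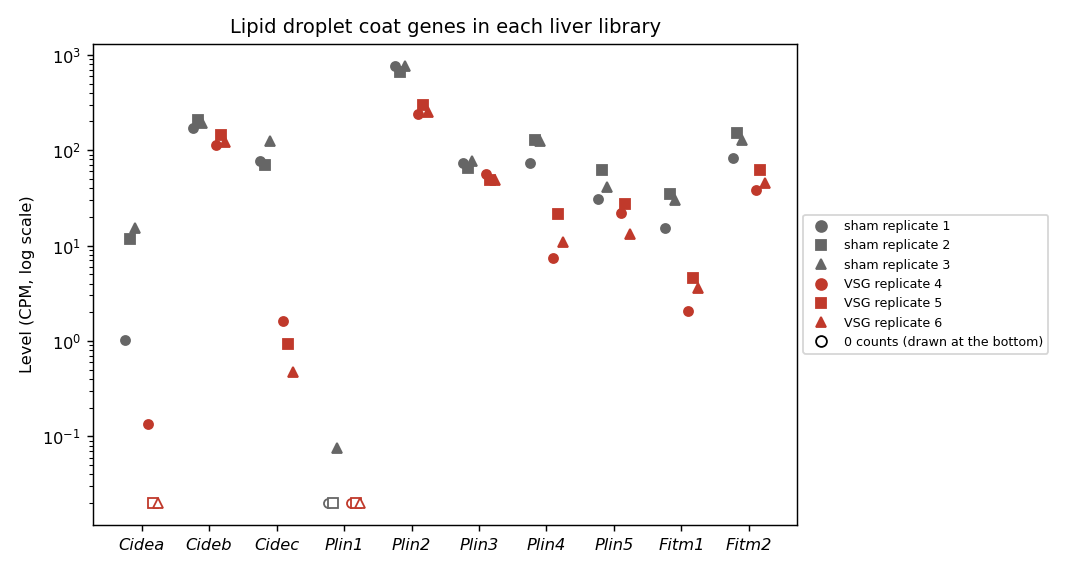
Level of each of the 10 genes in each library, in CPM (counts scaled to library size) on a log axis, with sham libraries in grey and VSG libraries in red and a marker shape for each replicate. Open markers at the bottom stand for 0 counts. Apart from Plin1, which had 2 counts in 1 library, all red points of a gene lie below its grey points, and the gap is widest for Cidec.

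Among the CIDE genes, Cidec and Cidea were nearly absent after VSG while most of the Cideb level remained. Cidec (ENSMUSG00000030278.11, minus strand of chromosome 6 from 113424634 to 113435760), which drives the fusion of small droplets into large ones, was at 77.9, 69.5 and 125 CPM in the sham libraries. It was at 1.63, 0.940 and 0.477 CPM in the VSG libraries, from 36, 22 and 10 counts. Even the lowest sham level was thus 42.7 times the highest VSG library. The group levels were 90.9 ± 30.0 and 1.02 ± 0.580 CPM (SD, n = 3), a log2 fold change of -6.47 (SE 0.440, adjusted p 0.00177). By unadjusted p it ranked at position 17 of all genes tested, and whichever library was left out its adjusted p stayed between 0.00379 and 0.0185.

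Cidea (ENSMUSG00000024526.9), a droplet protein best known from brown fat, had 28, 258 and 399 counts in the sham libraries. It had 3, 0 and 0 counts in the VSG libraries, where 3 counts are the floor of detection (0.128 to 0.132 CPM of the raw totals). With the TMM library sizes used for the levels, the 3 counts of VSG replicate 4 were 0.136 CPM. Sham replicate 1, at 1.03 CPM, was far below the other sham libraries, at 11.8 and 15.2 CPM, and still 7.62 times VSG replicate 4. Per unit of TMM library size the sham counts were 202 times those of VSG, with a 95% exact interval of 68.7 to 979.9 that covers counting error only. The ratio was 129 if sham replicate 3 was left out, 131 if VSG replicate 5 was and 302 if sham replicate 1 was. Without VSG replicate 4 no VSG count was left, and the sham level was at least 68.8 times the floor of 3 counts per library. The adjusted p was 0.0219, and it was 0.108 with limma-voom and 0.0587 with limma on log2(FPKM + 1). On leaving out sham replicate 2 or 3 it was 0.0553 or 0.0876, and on leaving out VSG replicate 4 or 6 it was 0.0673 or 0.0918.

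Cideb (ENSMUSG00000022219.10, minus strand of chromosome 14 from 55754050 to 55758458), the CIDE gene of normal hepatocytes, was at 170.2, 206 and 192 CPM in the sham and 114, 145 and 121 CPM in the VSG libraries. The groups did not overlap, but the lowest sham library exceeded the highest VSG library by a factor of only 1.18. Its means were 189 ± 17.9 and 127 ± 16.1 CPM, with a log2 fold change of -0.58 (SE 0.137, adjusted p 0.0368). The call needed all 6 libraries or those without VSG replicate 5 (0.0237), as the adjusted p was 0.0553, 0.1002 and 0.136 on leaving out sham replicates 1, 2 and 3 and 0.0857 and 0.128 on leaving out VSG replicates 4 and 6. Exons of Nop9, a gene on the opposite strand, overlap 1136 of the 1488 exon bases of Cideb. Nop9 was at 17.0 ± 0.470 and 18.2 ± 0.985 CPM (log2 fold change 0.10, adjusted p 0.473, and -0.040 with total counts). The strand option of the counting was not given in the sources used here.

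Compared per gene length, the CIDE family shifted towards a single gene. The summed level of the 3 CIDE genes was 157, 186 and 210.0 FPKM (counts scaled to exon length and library size) in the sham and 77.4, 97.7 and 81.8 FPKM in the VSG libraries. The sum after VSG was 46.4% of the sham mean (184.5 ± 26.4 against 85.6 ± 10.6 FPKM). Cideb made up 69.4% ± 7.01 of the sum in sham and 99.3% ± 0.515 in VSG livers. The share of Cidec went from 26.3% ± 6.02 to 0.656% ± 0.427 and that of Cidea from 4.25% ± 3.19 to 0.0524% ± 0.0908. Shares of a family must add up, so they were not tested one by one.

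**Figure D2:**
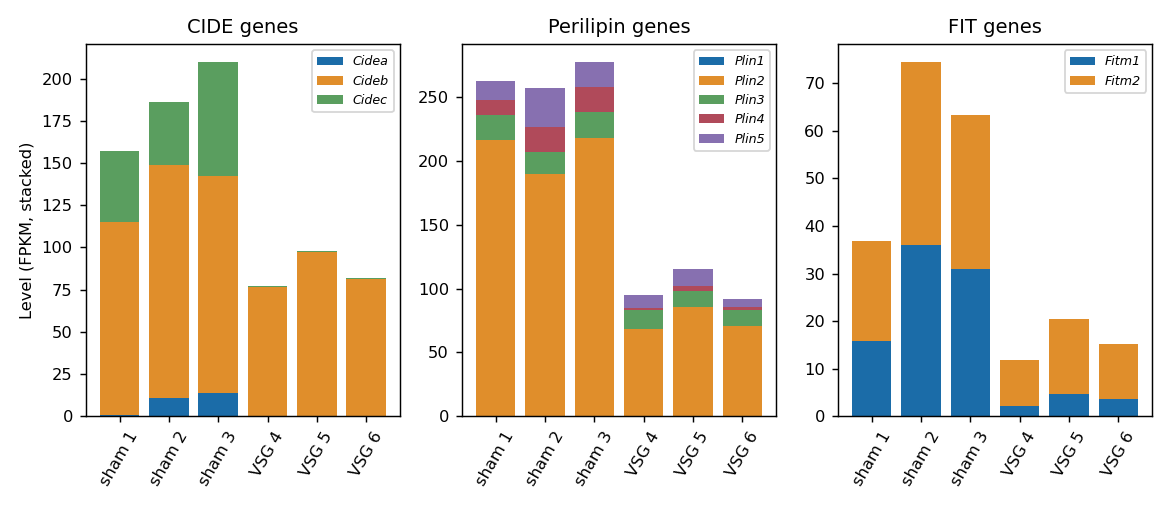
Summed level of the CIDE, perilipin and FIT genes in each library in FPKM, stacked by gene. The 3 VSG bars are lower than the 3 sham bars in every panel, and the Cidec and Cidea parts of the CIDE bars, on average 26.3% and 4.25% of a sham bar, are too thin to see in the VSG bars.

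Among the perilipins, Plin2 held most of the RNA in both groups and Plin4 had the lowest level relative to sham of those tested. Plin2 (ENSMUSG00000028494.12, minus strand of chromosome 4 from 86648386 to 86670060), which covers droplets in most cell types and shields their triglyceride, was at 760.2, 666 and 766 CPM in the sham libraries. In the VSG libraries it was at 241, 300.3 and 249 CPM. The spread within each group was small beside the gap, with means of 731 ± 56.4 and 263 ± 32.2 CPM, a log2 fold change of -1.47 (SE 0.153) and an adjusted p of 0.00635. Whichever library was left out, the adjusted p was at most 0.0458.

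Plin4 (ENSMUSG00000002831.14, minus strand of chromosome 17 from 56100591 to 56109803), whose long amphipathic repeats bind newly formed droplets, was at 73.6, 127 and 125 CPM in the sham libraries. It was at 7.38, 21.5 and 10.8 CPM after VSG. Both groups varied more than for Plin2, and the lowest sham library was still 3.43 times the highest VSG library. The means were 109 ± 30.3 and 13.2 ± 7.35 CPM, and the log2 fold change was -3.04 (SE 0.429, adjusted p 0.0115). Without sham replicate 3 the adjusted p was 0.0582 and without VSG replicate 6 0.0649. Exons of Hdgfl2 on the opposite strand overlap Plin4 by 17 bases, and Hdgfl2 had a log2 fold change of -0.17 (adjusted p 0.316).

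Plin5 (ENSMUSG00000011305.11), which ties droplets to mitochondria in tissues that burn fat, lies 1798 bases from Plin4 on the same strand of chromosome 17 (56111601 to 56117596). Its levels were 31.1, 62.7 and 40.8 CPM in the sham and 21.9, 27.6 and 13.2 CPM in the VSG libraries. Sham replicate 1 and VSG replicate 5 nearly met, at a factor of 1.13. The means were 44.8 ± 16.2 and 20.9 ± 7.23 CPM with a log2 fold change of -1.10 (SE 0.338) and an adjusted p of 0.0723, so Plin5 was the tested gene that was not called. Its adjusted p was 0.0118 by DESeq2, 0.0432 with total counts, 0.0291 without a low-count filter and 0.0448 without VSG replicate 5. Plin4 and Plin5 were neighbours with unlike log2 fold changes, and the difference between them was not tested.

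Plin3 (ENSMUSG00000024197.10, minus strand of chromosome 17 from 56277476 to 56292873), a perilipin that moves between the cytosol and droplets, had the smallest log2 fold change of the 9. Its levels were 73.2, 65.3 and 76.5 CPM in the sham and 55.9, 48.6 and 48.2 CPM in the VSG libraries, with means of 71.7 ± 5.74 and 50.9 ± 4.32 CPM. The log2 fold change was -0.49 (SE 0.106, adjusted p 0.0301), and the call was lost on leaving out sham replicate 1 or 3 (0.0695 or 0.123) or VSG replicate 6 (0.109). Plin1 (ENSMUSG00000030546.14), the perilipin of fat cells that gates hormone-driven lipolysis, had 0, 0 and 2 counts in the sham libraries and 0 in each VSG library. Both groups were under the floor of 3 counts, so no fold is given.

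The summed perilipin level was 262, 257 and 278 FPKM in the sham and 95.1, 115 and 91.5 FPKM in the VSG libraries, which is 37.9% of the sham mean after VSG (266 ± 10.7 against 101 ± 12.6 FPKM). Plin2 held 78.3% ± 4.38 of it in sham and 74.7% ± 2.54 in VSG livers, with overlapping libraries. Plin3 held 7.12% ± 0.354 and 13.5% ± 2.20, and Plin4 6.43% ± 1.78 and 2.01% ± 0.869, both without overlap between the groups. The share of Plin5, at 8.14% ± 3.15 and 9.81% ± 2.52, overlapped.

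The FIT genes were both lower, and the difference between them was not tested. Fitm1 (ENSMUSG00000022215.6, plus strand of chromosome 14 from 55575617 to 55576954), best known from skeletal and heart muscle, was at 15.4, 34.9 and 30.0 CPM in the sham and 2.08, 4.53 and 3.63 CPM in the VSG libraries. Its lowest sham level was 3.40 times the highest VSG library. Its log2 fold change was -2.97 (SE 0.395, adjusted p 0.0103), from 26.8 ± 10.1 to 3.41 ± 1.24 CPM. Without sham replicate 3 the adjusted p was 0.0549 and without VSG replicate 6 0.0576.

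Fitm2 (ENSMUSG00000048486.6, minus strand of chromosome 2 from 163466379 to 163472629), the member of the pair found in most tissues, was at 82.8, 153 and 129 CPM in the sham and 38.0, 62.8 and 45.1 CPM in the VSG libraries. Sham replicate 1 was again the lowest of its group and 1.32 times the highest VSG library. The log2 fold change was -1.32 (SE 0.273, adjusted p 0.0275), from 121 ± 35.6 to 48.6 ± 12.7 CPM. The call was lost on leaving out sham replicate 2 or 3 (0.0727 or 0.112) or VSG replicate 4 or 6 (0.0634 or 0.103). Per gene length, the pair stood at 36.7, 74.5 and 63.3 FPKM in the sham and 11.7, 20.5 and 15.1 FPKM in the VSG libraries. Fitm1 made up 46.7% ± 3.10 of that sum in sham and 21.9% ± 3.31 in VSG livers, without overlap.

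**Figure D3:**
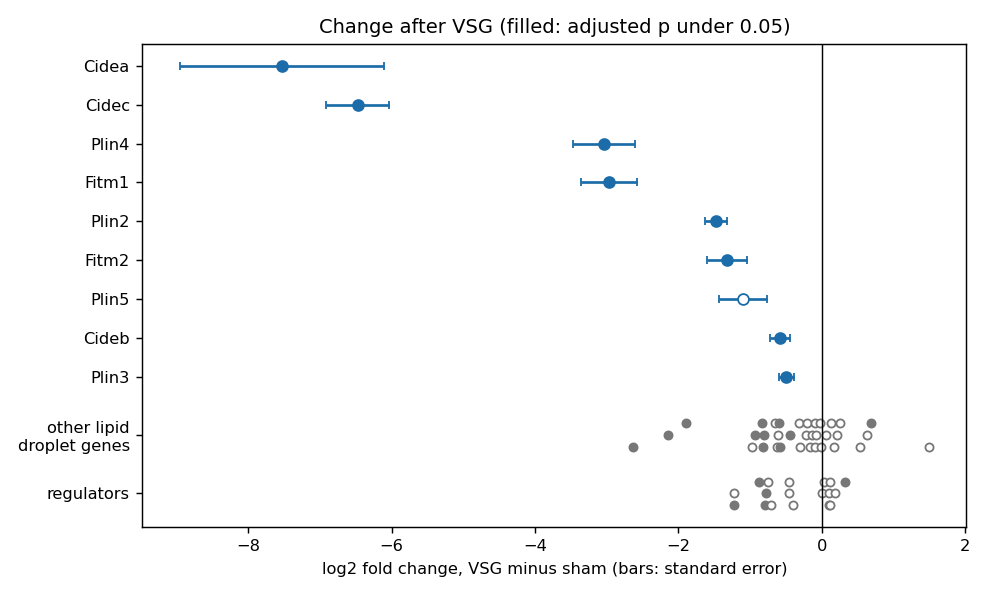
log2 fold change (VSG minus sham) of the 9 tested coat genes with standard errors, above the other lipid droplet genes (34 tested) and the regulators (18 tested), each as 1 point. Filled points have an adjusted p under 0.05 by edgeR. The coat genes run from -7.53 for Cidea, a value that depends on the prior count because of its 0 counts, to -0.49 for Plin3.

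The order of the coat genes by FPKM also differed between the groups. In sham livers Plin2 (208 ± 16.1 FPKM) stood above Cideb (127 ± 12.0) and Cideb above Cidec (49.0 ± 16.2), with no overlap between these neighbours. Cidec, Fitm2, Fitm1, Plin5, Plin3, Plin4 and Cidea followed down to 8.36 ± 6.62 FPKM, and each overlapped the next. In VSG livers Cideb (85.0 ± 10.8 FPKM) and Plin2 (74.99 ± 9.16) overlapped at the top. Plin3 (13.4 ± 1.14), Fitm2 and Plin5 followed without a gap among them, then Fitm1 (3.51 ± 1.28) and Plin4 (2.08 ± 1.16), which overlapped, and then Cidec at 0.547 ± 0.312 FPKM, separate from Plin4. All 10 genes together came to 508 ± 48.0 FPKM in sham and 202 ± 27.1 FPKM in VSG livers, or 39.7%.

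Within a group the genes did not all vary together. Of the 9 tested genes, 5 (Cideb, Plin4, Plin5, Fitm1 and Fitm2) were highest in sham replicate 2, and these 5 and Cidea were lowest in sham replicate 1. Cidec, Plin2 and Plin3 went the other way, with their lowest sham level in replicate 2 and their highest in replicate 3. Among the VSG libraries, Cideb, Plin2, Plin4, Plin5, Fitm1 and Fitm2 were highest in replicate 5, and Cidec and Plin3 in replicate 4. Cidec was thus at 1.63 CPM in VSG replicate 4, where Plin4 had its lowest level of 7.38 CPM. The sham order depends on the scaling. By counts over total counts, an alternative added after seeing the data, 2 of the 5 (Plin5 and Fitm2) were still highest in sham replicate 2, Cideb, Plin4 and Fitm1 were highest in replicate 3, and Cideb was lowest in replicate 2. Plin2 and Plin3 were then highest in replicate 1. The genes highest in VSG replicates 4 and 5 were the same by both scalings. With 3 libraries per group these orders are a description.

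**Figure D4:**
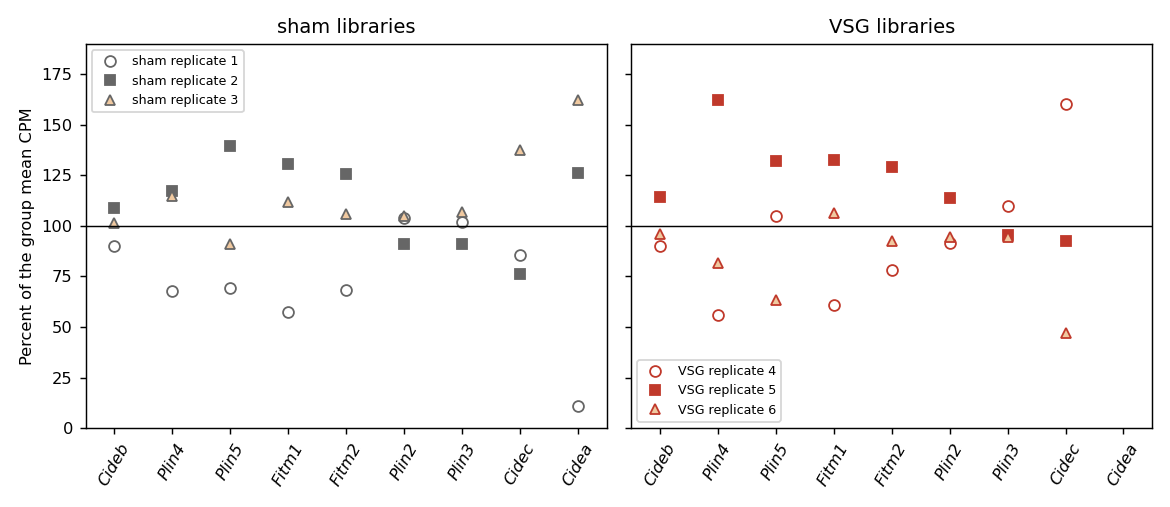
Level of each gene in each library as a percent of the mean CPM (TMM library sizes) of its own group, sham on the left and VSG on the right, with a marker for each replicate. Squares (sham replicate 2 and VSG replicate 5) lie above 100% for Cideb, Plin4, Plin5, Fitm1 and Fitm2 and below it for Cidec and Plin3. Cidea is left out of the VSG panel because of its 3, 0 and 0 counts.

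The cell types of the samples were checked against marker lists, as fat tissue, muscle and blood cells express some of the coat genes. All 8 hepatocyte markers were abundant, and their adjusted p-values ran from 0.0511 to 0.987. The defining fat cell markers Adipoq, Lep, Adig and Retn had 11 counts in all over the 6 libraries, with at most 5 for 1 gene in 1 library, and Lep had 0. The defining muscle markers Acta1, Ckm and Myh4 also had 11 counts in all, and the whole muscle list of 8 genes summed to 0.494 to 1.11 CPM in sham and 0.513 to 0.769 CPM in VSG libraries. The fat cell list of 10 genes, 4 of them tested and 1 lower, summed to 1502 to 4733 CPM in sham and 85.7 to 652 CPM in VSG libraries, mostly from Car3 and Thrsp, which hepatocytes also express. Cfd, a gene of that list named after its values were seen, had too few counts to be tested. It had 2, 66 and 42 counts in the sham and 0, 4 and 4 counts in the VSG libraries. Its lowest sham library was also that of Cidea. Of the 4 tested genes, Fabp4 (23.7 and 20.8 CPM, adjusted p 0.429) and Lipe (17.1 and 16.0 CPM, 0.760) overlapped between the groups. Car3 and Thrsp did not. Of the immune cell lists, all 9 neutrophil markers were higher after VSG, where 6.79% of all genes tested were, from 2.604 to 14.3 CPM summed in sham to 147 to 1820 CPM in VSG libraries, and 4 of 12 macrophage markers were higher. The 4 higher macrophage markers were Marco (log2 fold change 4.96), Timd4 (3.03), Vsig4 (1.51) and Clec4f (1.23). The summed macrophage levels overlapped (432 to 975 against 871 to 2338 CPM). Trem2 (-1.40, adjusted p 0.150) and Gpnmb (-0.59, SE 1.10, adjusted p 0.728), macrophage markers named after their values were seen, had negative log2 fold changes that did not pass the test. Gpnmb was at 104, 12.6 and 35.5 CPM in the sham libraries. Of 10 stellate cell markers 2 were lower, with sums of 724 to 1044 against 394 to 662 CPM, where 7.87% of all genes tested were lower, and of 6 bile duct markers 1 was higher (58.5 to 256 against 74.5 to 202 CPM). The neutrophil sum was 1820, 147 and 839 CPM in VSG replicates 4, 5 and 6. Replicate 5 had the highest level of 6 coat genes, and replicate 4 had that of Cidec and Plin3. The lowest VSG level was in replicate 4 for 5 coat genes and in replicate 6 for 3. The part of these cells in the changes of the coat genes was not tested.

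Other genes of the droplet were lower in part. Of 35 further genes whose proteins sit on droplets or help to form them, 34 were tested, 10 were lower and 1 was higher, where 7.87% of all genes tested were lower and 6.79% higher, and the median log2 fold change was -0.21. On leaving out sham replicate 3 or VSG replicate 6, 0 were lower, where 0.748% and 0.812% of all genes were. The lowest relative to sham were Clstn3 (-2.63, 35.8 ± 15.6 to 5.76 ± 1.31 CPM, adjusted p 0.0106), whose locus also makes a fat cell droplet protein that gene counts cannot separate, and G0s2 (-2.15, 77.7 ± 27.3 to 17.5 ± 6.78 CPM, adjusted p 0.0170), an inhibitor of the triglyceride lipase Pnpla2. Mgll, the monoglyceride lipase, had -1.90 (406 ± 113 to 109 ± 63.2 CPM, adjusted p 0.0397). Hsd17b13, a hepatocyte droplet enzyme, went from 777 ± 18.3 to 407 ± 53.6 CPM (-0.93, adjusted p 0.0163). Pnpla2 itself, the first lipase of droplet triglyceride, was close to the threshold (-0.58, adjusted p 0.0494). The single gene that was higher was Vps13c, a lipid transfer protein, at 0.68 (adjusted p 0.0105, but 0.0719 without sham replicate 3 and 0.0561 without VSG replicate 6), named after its values were seen. All 5 named lower genes lost their calls without sham replicate 3 or without VSG replicate 6, with adjusted p-values from 0.0549 to 0.161. Whichever library was left out, their log2 fold changes stayed between -2.92 and -2.28 for Clstn3, -2.53 and -1.94 for G0s2, -2.44 and -1.55 for Mgll, -1.04 and -0.83 for Hsd17b13 and -0.79 and -0.48 for Pnpla2. Mgll also lost it on leaving out sham replicate 1 or 2 (0.0573 or 0.101), and Pnpla2 on leaving out sham replicate 1 or 2 or VSG replicate 4 (0.1004 to 0.106) and with limma-voom (0.0518) or limma on log2(FPKM + 1) (0.0506).

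Of 18 transcription factors and cofactors with a known part in the control of coat genes, 4 were lower and 1 was higher, where 7.87% of all genes tested were lower and 6.79% higher, and the median log2 fold change was -0.43. Pparg, the nuclear receptor that drives fat cell genes and Cidec in fatty liver, went from 29.1 ± 1.51 CPM after sham to 12.4 ± 1.87 CPM after VSG (-1.23, SE 0.134, adjusted p 0.00692). It kept an adjusted p of at most 0.0462 whichever library was left out. Srebf1, the factor of lipid synthesis, had -0.78 (adjusted p 0.0142), the xenobiotic receptor Nr1i2 -0.88 (0.0322) and the coactivator Ppargc1a -0.79 (0.0371). All 3 lost the call without sham replicate 3 or VSG replicate 6, at adjusted p-values from 0.0686 to 0.131. Nr1i2 and Ppargc1a lost it also without sham replicate 2 (0.0835 and 0.0969) or VSG replicate 4 (0.0776 each). Ppara, the receptor that governs fat oxidation, overlapped between the groups (250 ± 53.8 and 148 ± 68.9 CPM, -0.76, adjusted p 0.217). Med1, a Mediator subunit named after its values were seen, was higher by 0.33 (adjusted p 0.0429), and it lost the call whichever library was left out (0.0698 to 0.172) and with log2(FPKM + 1), RLE factors, total counts or no filter.

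Among the genes next to the coat genes, changes went both ways. Lrg1, an acute phase glycoprotein gene 2082 bases from Plin5 on the same strand, went from 279 ± 23.6 CPM after sham to 1319 ± 396 CPM after VSG (2.24, SE 0.249, adjusted p 0.00698, and 0.0512 without sham replicate 3). Lrg1 and Plin4, on either side of Plin5, thus differed from sham in opposite directions. Pex11a, a peroxisome gene 3054 bases from Plin1, was at 285 ± 107 and 59.5 ± 11.5 CPM (-2.26, adjusted p 0.0115, but 0.0604 without sham replicate 3 and 0.0576 without VSG replicate 6), while Plin1 was under the floor in both groups. Beside Cideb, Dhrs1 was lower (-0.69, adjusted p 0.0342) and Ltb4r2 higher (1.19, adjusted p 0.0425), and beside Cidea, Impa2 was lower (-0.96, adjusted p 0.0265). All 3 lost the call on leaving out any of at least 4 libraries, sham replicates 1 to 3 and VSG replicate 6 among them, at adjusted p-values of up to 0.160. Ltb4r2 also lost it with total counts (0.0678), limma-voom (0.0517) and limma on log2(FPKM + 1) (0.0506). The genes that flank Cidec (Rpusd3 and Jagn1) and Plin2 (Haus6 and Dennd4c) did not pass the test, with adjusted p-values from 0.210 to 0.996. Exon overlaps on the opposite strand were also found for Fitm2 (2310001K24Rik, 227 bases) and Fitm1 (Gm15932, 109 bases), and both partners had too few counts to be tested.

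The genes whose levels followed those of Cidec most closely over the 6 libraries were Tprgl, Pepd, Gm10680, Apoa4 and Dusp3, with Pearson correlations of log2(CPM + 0.5) from 0.996 to 0.999 among 9957 genes with a mean of at least 5 CPM. For Plin2 they were Mpv17, Lipa, Dusp22, Cox19 and Ephx1, from 0.995 to 0.998. The 6 libraries come from a sham and a VSG group, so these values contain the difference between the groups and are a description only. Apoa4, an apolipoprotein secreted with lipid-rich particles, was at 3227 ± 1070.2 and 296 ± 48.9 CPM and the lncRNA Gm10680 at 33.6 ± 10.3 and 3.35 ± 0.883 CPM, where Tprgl and Dusp3 had log2 fold changes of only -0.72 and -0.51. Lipa, the lysosomal acid lipase, was at 496 ± 28.7 and 245 ± 15.7 CPM.

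**Figure D5:**
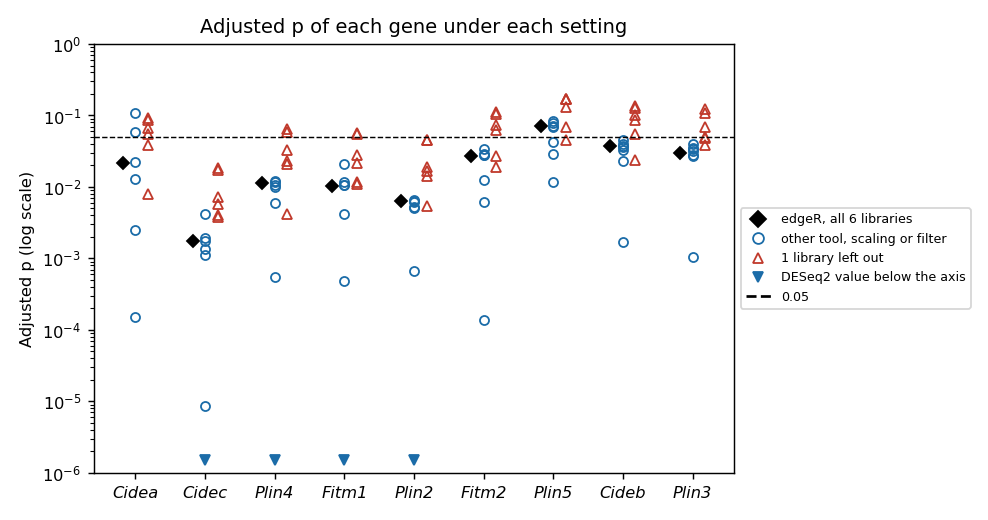
Adjusted p of each tested coat gene on a log axis under the analysis of all 6 libraries (diamond), under another tool, scaling or filter (circles) and with 1 library left out (triangles), with a dashed line at 0.05. Inverted triangles at the bottom are DESeq2 values below the axis. All points of Cidec and Plin2 lie below the line, and the other 7 genes have points on both sides.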

How the data were processed

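Poly(A) RNA of 3 sham and 3 VSG livers was measured, with groups taken from the sample titles. The authors deposited 1 table of raw counts, 1 row per gene. Per the submitters' processing notes and the study's methods, the authors used FastQC 0.10.1, STAR 2.6.0 with the mm10 genome and featureCounts 2.0.3 (another release is named in the methods), and ran DESeq2. Which annotation was used, whether strand counted and how reads that match several genes were treated is not given in the sources used here. Of 55385 gene identifiers, 54487 equalled GENCODE M21 in version and coordinates and 55144 matched without version. Symbols came from that match. Exon lengths were those of the deposited table.

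Total counts ran from 23666809 to 24191778 in sham and from 22804397 to 23509921 in VSG libraries. The floor was 3 counts per library, 0.124 to 0.132 CPM of the raw totals, and covers counting error only. Genes that passed filterByExpr (minimum count 10, minimum total 15) entered an edgeR 4.0.16 analysis (R 4.3.3) with TMM factors (0.897 to 1.15), a quasi-likelihood fit with group as the only term and Benjamini-Hochberg adjustment over all 14454 genes. Adjusted p-values come from this fit unless another tool is named, and log2 fold changes are VSG minus sham. CPM and FPKM used TMM library sizes. An exact permutation test of 3 against 3 cannot give a two-sided p under 0.1, so none was used. The script was tested on simulated data.

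The members, the gene lists and the tests were chosen with earlier results of these data known. Named were all 10 genes, the 4 genes of each further list with the largest called change, Pparg, Ppara, Pnpla2 and Hsd17b13, neighbours that were called or overlapped in exons, and the 5 genes most correlated with Cidec and with Plin2. The alternatives were DESeq2 1.42.0, limma-voom and limma 3.58.1 on log2(FPKM + 1), RLE factors, total counts, every gene with 1 count, a minimum of 10 counts in each library and the removal of each library in turn. Promoter windows were those of RefSeq for GRCm38.p6.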

Additional observations from a re-analysis of the deposited data

How the results depend on the processing

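No fold change of the 9 tested coat genes changed sign under the 13 alternatives (12 for Cidea, which a filter of at least 10 counts in every library removed). The number of them lower after VSG was 8, and ran from 2 to 9 when 1 library was left out. Of all genes, 1137 were lower with all libraries, 111 without sham replicate 3 and 120 without VSG replicate 6, the removals that left 2 coat genes. The number of coat genes lower was 9 with DESeq2 (12.3% of all genes lower), total counts (10.5%) or no filter (4.7%). It was 8 with RLE factors (7.94%). With the stricter filter (8.08%), limma-voom (7.26%) or log2(FPKM + 1) (7.54%) it was 7. Under all of these 0 were higher, where 3.36% to 10.5% of all genes were. With 1 library left out 0 were higher too, where 0.323% to 8.83% of all genes were. Total counts moved the median log2 fold change of all genes by -0.14 and the split of all calls to 1512 lower and 486 higher, from 1137 and 981. Beyond the coat genes, this check covered the genes named from the 2 further lists and the neighbours called or overlapping in exons. Among these, the sign turned only for Nop9, at -0.040 under total counts. The cell markers, the correlated genes and the flanking genes that were not called were not included in this check. Of the 34 other droplet genes tested, 10 were lower and 1 was higher. Without 1 library these ran from 0 to 13 and from 0 to 1, where 0.748% to 9.59% of all genes were lower and 0.323% to 8.83% higher. With DESeq2 14 were lower (12.3% of all genes) and with total counts 13 (10.5%), against 7.87% in the analysis of all 6 libraries. Of the 18 regulators, 4 were lower, with a range of 1 (0.748% of all genes lower without sham replicate 3, 0.812% without VSG replicate 6) to 6 (9.59% without VSG replicate 5) when a library was left out, and 1 was higher, which fell to 0 with log2(FPKM + 1), RLE factors, total counts and no filter and ran from 0 to 0 when a library was left out. The summed FIT level after VSG was 27.1% of sham as FPKM and 35.1% as CPM. Neither the labels nor the study's methods pair a sham mouse with a VSG mouse, so no paired analysis was made.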
